A study of Mus musculus with 6 samples.

Results

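Cytochrome c oxidase, complex IV of the respiratory chain, holds several nuclear-encoded subunits that exist as a muscle isoform and a ubiquitous isoform, and 9 genes of this kind were described: *Cox6a2*, *Cox7a1* and *Cox8b* (muscle), their partners *Cox6a1*, *Cox7a2* and *Cox8a* (ubiquitous), *Cox4i1* and *Cox4i2*, and *Cox7a2l*. They were taken by gene symbol as the subunits with paired isoforms, with *Cox7a2l* as a relative of the Cox7a pair, and all 9 were listed among the 17145 genes of the count table. Complex IV takes electrons from cytochrome c, passes them to oxygen and pumps protons. Its catalytic core is made inside the mitochondrion, and small nuclear-encoded subunits surround the core and adjust its activity and stability. In rodents the heart switches after birth from the ubiquitous toward the muscle isoforms of subunits 6a, 7a and 8, which skeletal muscle uses as well, while tissues such as liver keep the ubiquitous ones.

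The libraries came from heart sections of FS6KD mice, which are homozygous for a gene trap in *Ndufs6*, a complex I subunit, on a mixed C57BL/6J and 129/Ola background, and whose knockdown is strongest in heart. Photo-isolation chemistry reverse-transcribed mRNA in fresh-frozen sections with caged primers. Ultraviolet light then uncaged the primers only in areas picked by anti-Atf3 immunostaining, which allowed in vitro transcription there before CEL-seq2 libraries were made. The 3 Atf3 high and the 3 Atf3 low libraries were both from within Atf3-positive clusters, with tissue, cell type and sex labelled as heart, cardiomyocytes and female, and with no wild-type library among them. The age of these mice is not given by the labels, and neither is whether a high and a low area came from the same animal. The study describes its replicates as biological, but the labels tie no library to an animal. The p-values below therefore weigh group differences against the spread between libraries, which may not be that between animals.

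The libraries held 184872, 81117 and 210588 unique molecular identifiers (UMIs, tags that let each cDNA molecule be counted once) in Atf3 high replicates 1, 2 and 3, and 171536, 125522 and 81917 in Atf3 low replicates 1, 2 and 3. Levels are in CPM, that is, UMIs scaled to the TMM-adjusted size of each library, and 1 UMI was worth between 4.66 and 13.6 CPM. A count of 0 allows 3 UMIs, which correspond to 14.0 CPM in Atf3 high replicate 3 and to 40.9 CPM in Atf3 low replicate 3 (counting error only). *Ndufs6*, the targeted gene, had 2, 0 and 3 UMIs in the Atf3 high libraries and 0 in each Atf3 low library. The 9 genes together took 0.617%, 0.722% and 0.906% of the UMIs in Atf3 high, against 0.712%, 0.824% and 0.986% in Atf3 low. A single library went against its labelled sex. In Atf3 high replicate 2, *Ddx3y* and *Eif2s3y*, both Y-linked, had 16 UMIs together and *Xist* had 0, whereas the other libraries held 3 to 26 UMIs of *Xist* and at most 1 Y-linked UMI. The fold changes of the isoform genes and the ratios of the 3 muscle and ubiquitous pairs are therefore given with and without it. *Atf3* mRNA did not separate the groups, which were picked by staining of the protein. It had 50, 7 and 25 UMIs (254, 84.5 and 116 CPM) in Atf3 high, against 35, 0 and 8 UMIs (236, 0 and 109 CPM) in Atf3 low, so that Atf3 low replicate 1 exceeded Atf3 high replicates 2 and 3. Its log2 fold change of 0.40 had a standard error of 0.65, and it turned to −0.19 when Atf3 high replicate 1 was left out and to −0.23 when Atf3 low replicate 2 was, and rose to 1.65 when Atf3 low replicate 1 was.

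Markers were read to check the labelled cell type. Of 12 cardiomyocyte markers, 11 were listed and each had UMIs in all 6 libraries (*Mb* was not analysed here), with *Myl2*, the ventricular regulatory light chain, the most abundant. Their summed level was 23988, 24874 and 45490 CPM in Atf3 high, against 46119, 50680 and 61082 CPM in Atf3 low, so that every Atf3 high library was below every Atf3 low library. This separation rests on the scaling, since Atf3 high replicate 3 was above Atf3 low replicate 1 with scaling by library size alone. It rests on single markers as well. Each was left out in turn, a choice made after the data had been seen, and the groups overlapped without *Myh6* (21997, 22279 and 40944 CPM against 35425, 41620 and 48839 CPM) and without *Actc1* (19161, 22460 and 40152 CPM against 35094, 43606 and 51331 CPM), but not without any of the other 9. Of the 11 tested, *Nppa* was called higher and *Myh6* lower. *Myh6* was called by DESeq2 and limma-trend too, whereas *Nppa* was called by DESeq2 but not by limma-trend (adjusted p = 0.214) or with filterByExpr in edgeR (0.228). With a library left out *Nppa* was called only where this was Atf3 high replicate 3, and *Myh6* only where it was that library or Atf3 low replicate 2, with the direction of both kept in all 6 cases. The 9 fibroblast markers, all listed, with *Col3a1* the most abundant and none at 0 in a group, summed to 5290, 2836 and 1132 CPM in Atf3 high, against 2662, 1493 and 572 CPM in Atf3 low. Atf3 high replicate 1 held the most fibroblast RNA and Atf3 low replicate 3 the least, and the groups overlapped. The log2 fold change of each of the 9 was positive, with a median of 0.97 beside 0.11 over all genes tested. Of these markers 0 were called, while *Postn*, *Col1a2* and *Col3a1* had an unadjusted p under 0.05 in edgeR, as did 5.79% of all genes tested. Mural cell markers (10 of 11 listed, *Rgs5* most abundant, *Higd1b* at 0 in Atf3 low) summed to 684 ± 258 CPM in Atf3 high against 626 ± 116 in Atf3 low (n = 3, SD). This list includes *Abcc9*, lower in Atf3 high (88.9 against 229 CPM), and without it, a choice made after the data had been seen, the sums were 596 ± 256 and 397 ± 218 CPM (n = 3, SD), with overlap. Endothelial markers (10 of 10, *Fabp4* most abundant, *Cldn5* at 0 in Atf3 high) summed to 1391 ± 159 and 1310 ± 364 CPM, and macrophage markers (9 of 9, *Lyz2* most abundant) to 284 ± 100 and 301 ± 67.7 CPM (SD, n = 3). Of 5 erythrocyte markers 2 were listed, *Hbb-bs* and *Hba-a2*, the latter at 0 in Atf3 high, and they summed to 76.7 ± 69.6 and 73.3 ± 66.0 CPM (SD, n = 3).

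CEL-seq2 counts molecules by their 3′ ends, so a UMI count does not scale with transcript length, and levels of different genes are compared in CPM. The order in CPM per kilobase of the longest coding transcript (360 to 1129 bases) is given first, for description only. Division by length raises genes with short transcripts, of which *Cox8b* has the shortest (360 bases), and it is not read as the order of molecules. Averaged over the 6 libraries, the order in CPM per kilobase was *Cox8b* (4904), *Cox6a2* (3472), *Cox4i1* (2608), *Cox7a1* (2161), *Cox7a2* (785), *Cox6a1* (567), *Cox7a2l* (189), *Cox8a* (74.6) and *Cox4i2* (6.71). Each of the first 4 exceeded the next gene of this order in 6 of 6 libraries. *Cox7a1* did so without overlap of the ranges per kilobase. In CPM it exceeded *Cox7a2* in 6 of 6 libraries too, but the ranges overlapped (lowest 650, against a highest of 661 for *Cox7a2*). *Cox7a2* exceeded *Cox6a1* in 4 of 6 libraries only, with overlapping ranges, so these neighbours did not differ beyond their spread. In CPM without division by length, *Cox6a2* led with 2361 ± 700, followed by *Cox4i1* with 1995 ± 422 and *Cox8b* with 1766 ± 503 (SD, n = 6), and their ranges overlapped. *Cox6a2* exceeded *Cox4i1* in 5 of 6 libraries, and *Cox4i1* exceeded *Cox8b* in 4 of 6. The first place of *Cox8b* per kilobase thus came from the division by length. The order of mean CPM was the same in Atf3 high and in Atf3 low.

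*Cox6a2*, the muscle isoform of a subunit at the surface where 2 complex IV monomers meet, had 340, 154 and 575 UMIs in Atf3 high, against 261, 320 and 255 in Atf3 low. Its levels were 1728, 1859 and 2678 CPM in Atf3 high replicates 1, 2 and 3 and 1759, 2670 and 3473 CPM in Atf3 low replicates 1, 2 and 3. The groups overlapped, with Atf3 high replicate 3 above 2 of the Atf3 low libraries. The log2 fold change of Atf3 high over Atf3 low was −0.33 with a standard error of 0.34 (95% interval −1.01 to 0.35), and the quasi-likelihood test of edgeR and Benjamini-Hochberg adjustment gave an adjusted p of 0.996. The value moved to −0.60 without Atf3 low replicate 1 and to −0.09 without Atf3 low replicate 3.

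*Cox7a1*, the heart and skeletal muscle isoform of subunit 7a, had 128, 68 and 219 UMIs in Atf3 high, against 176, 148 and 101 in Atf3 low. Its levels were 650, 821 and 1020 CPM in Atf3 high, against 1186, 1235 and 1376 CPM in Atf3 low. Every Atf3 high library was below every Atf3 low library in these TMM-scaled levels. With scaling by library size alone *Cox7a1* overlapped, as Atf3 high replicate 3 (219 of 210588 UMIs) exceeded Atf3 low replicate 1 (176 of 171536). Its log2 fold change was −0.60 with a standard error of 0.36 (95% interval −1.33 to 0.12), the unadjusted p was 0.0996, and the adjusted p was 0.964 in the quasi-likelihood test of edgeR and Benjamini-Hochberg adjustment. The difference in means was thus not past the threshold against the spread between libraries over all genes, although this gene had the smallest p of the 8 isoform genes tested.

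*Cox8b*, the muscle isoform of the smallest subunit, which rodents express and humans have lost, had 186, 141 and 381 UMIs in Atf3 high, against 296, 202 and 183 in Atf3 low. Its levels were 945, 1702 and 1775 CPM in Atf3 high, against 1995, 1685 and 2492 CPM in Atf3 low. Atf3 high replicate 1 was well below the other 5 libraries, and the groups overlapped at Atf3 low replicate 2. The log2 difference between the groups was −0.48 with a standard error of 0.35, with an adjusted p of 0.969 in the quasi-likelihood test of edgeR after Benjamini-Hochberg adjustment. It ranged from −0.66 (without Atf3 low replicate 2) to −0.24 (without Atf3 high replicate 1) as each library was left out.

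**Figure D1:**
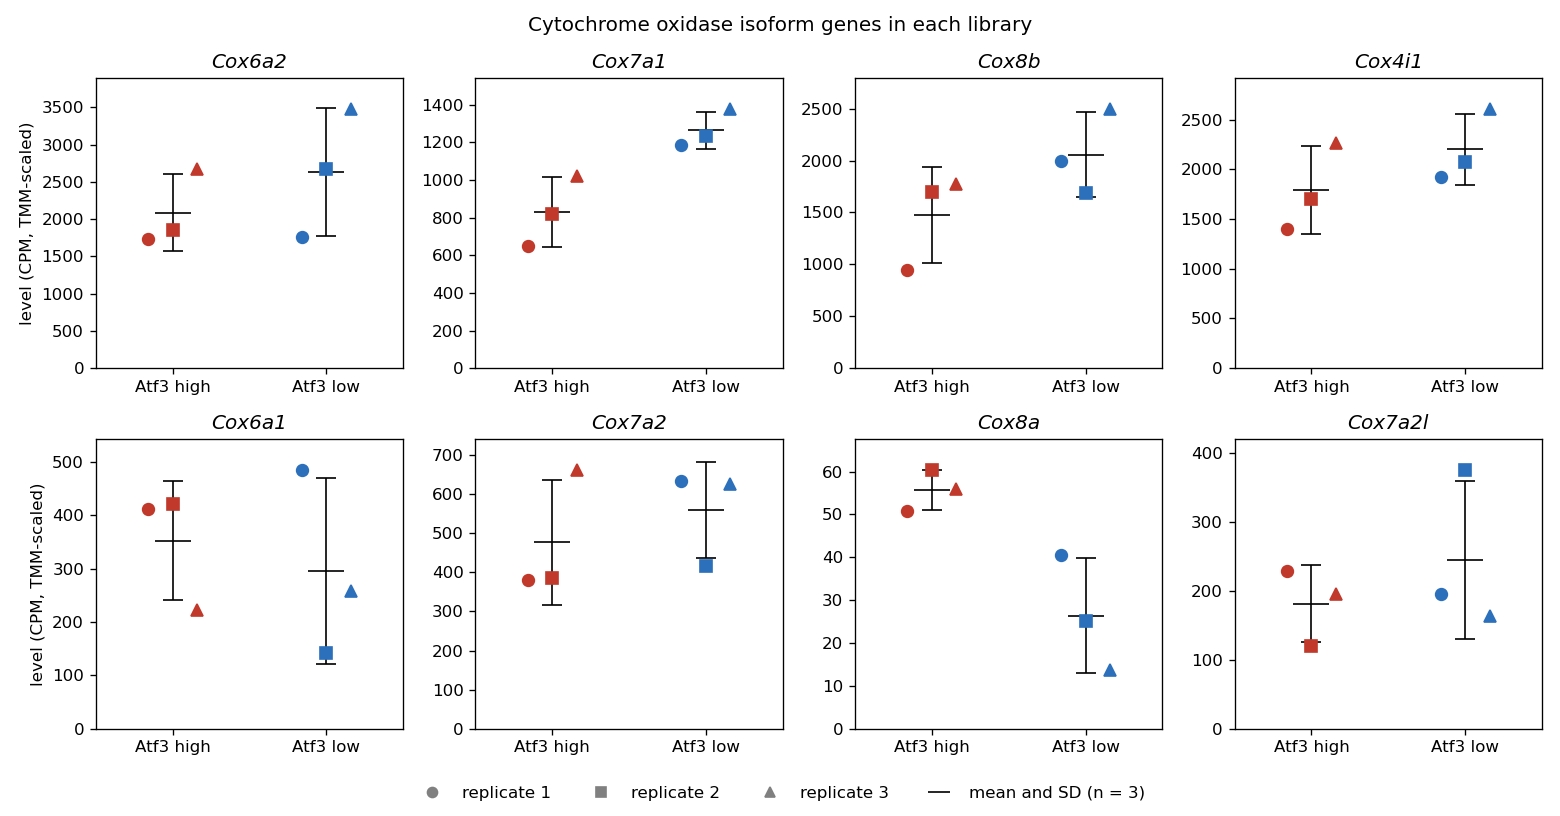
Level of 8 genes in each library, in TMM-scaled CPM on linear axes from 0 that differ between panels, with points for libraries (replicate number by shape, Atf3 high red, Atf3 low blue) and bars for the mean and SD of 3 libraries. The points of *Cox7a1* (650 to 1020 CPM in Atf3 high, 1186 to 1376 in Atf3 low) and of *Cox8a* (50.8 to 60.3 and 13.6 to 40.4) do not overlap between the groups, and those of the other 6 genes do.

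The ubiquitous partners were measured from fewer molecules. *Cox6a1* had 81, 35 and 48 UMIs in Atf3 high, against 72, 17 and 19 in Atf3 low, or 412, 422 and 224 CPM and 485, 142 and 259 CPM. The highest value and the lowest value both belonged to Atf3 low libraries, replicates 1 and 2. Its log2 fold change was 0.23 with a standard error of 0.46 and turned to −0.16 without Atf3 low replicate 2, while it rose to 0.77 without Atf3 low replicate 1. *Cox7a2*, the isoform of subunit 7a found in most tissues, had 75, 32 and 142 UMIs in Atf3 high, against 94, 50 and 46 in Atf3 low, or 381, 386 and 661 CPM and 633, 417 and 626 CPM. Here Atf3 high replicate 3 was the highest of the 6 libraries and the groups overlapped. Its log2 fold change was −0.22 with a standard error of 0.40, and it moved to −0.55 without Atf3 high replicate 3 and to −0.08 without Atf3 high replicate 1.

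*Cox8a*, the ubiquitous partner of *Cox8b*, had 10, 5 and 12 UMIs in Atf3 high, against 6, 3 and 1 in Atf3 low. These are 50.8, 60.3 and 55.9 CPM in Atf3 high, against 40.4, 25.0 and 13.6 CPM in Atf3 low. Every Atf3 high library was above every Atf3 low library, but the lowest of them rests on 1 UMI, and 37 UMIs were counted in all. The log2 fold change of 0.97 had a standard error of 0.87 (95% interval −0.79 to 2.73) and an adjusted p of 0.996 in the quasi-likelihood test of edgeR and Benjamini-Hochberg adjustment.

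The remaining genes have other roles. *Cox4i1*, the common isoform of subunit 4, which enters the complex early in its assembly, had levels of 1402, 1702 and 2268 CPM in Atf3 high, against 1920, 2077 and 2601 CPM in Atf3 low. Atf3 high replicate 3 exceeded Atf3 low replicates 1 and 2, and the log2 fold change was −0.29 with a standard error of 0.34 (−0.51 without Atf3 high replicate 3, −0.15 without Atf3 high replicate 1). *Cox7a2l*, whose protein joins complex IV to complex III in supercomplexes, and of which C57BL/6 strains carry a shortened form, had 229, 121 and 196 CPM in Atf3 high, against 195, 375 and 163 CPM in Atf3 low. Atf3 low replicate 2 was the highest and Atf3 high replicate 2 the lowest. The log2 fold change was −0.41 with a standard error of 0.48, and it moved to −0.01 without Atf3 low replicate 2 and to −0.62 without Atf3 low replicate 3. *Cox4i2*, the isoform of subunit 4 typical of lung and induced by low oxygen, had 2 UMIs in Atf3 high replicate 3, 3 in Atf3 low replicate 1 and 0 in the other 4 libraries. It was below the minimum of 10 UMIs in total and was not tested, and no fold change is given for it.

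Of the 7665 genes with at least 10 UMIs, 7 were called at an adjusted p under 0.05 (0.0913%), 3 higher and 4 lower in Atf3 high, by the quasi-likelihood test of edgeR and Benjamini-Hochberg adjustment. With scaling by library size alone the calls split into 4 higher and 3 lower, and with DESeq2 into 3 higher and 9 lower. Leaving out Atf3 high replicate 1, 2 or 3 gave 1, 1 or 11 calls, and leaving out Atf3 low replicate 1, 2 or 3 gave 0, 6 or 1. Of the 9 isoform genes 8 were tested, and 0 were called by edgeR, by DESeq2 or by limma-trend, with adjusted p between 0.964 and 0.996 in edgeR. At an unadjusted p under 0.05 the count was 0 of 8 in edgeR, where 5.79% of all genes tested had such a p, 1 in DESeq2 (*Cox7a1*, unadjusted p = 0.0495, beside 3.25% of all genes) and 0 in limma-trend (5.53% of all genes). In edgeR without Atf3 high replicate 3 it was 1 as well (*Cox7a1*), beside 446 of all 6588 genes tested in that fit. The log2 fold changes were negative for 6 and positive for 2 of the 8 genes with a median of −0.31, beside a median of 0.11 over all genes tested. Scaling by library size alone moved the median of all genes to 0.31 and that of the 8 to −0.11. It brought *Cox7a1* to −0.40, *Cox8b* to −0.28, *Cox7a2l* to −0.22, *Cox6a2* to −0.13, *Cox4i1* to −0.09, *Cox7a2* to −0.01, *Cox6a1* to 0.46 and *Cox8a* to 1.18, with no change of sign. In TMM-scaled CPM, groups did not overlap for 1 of the 8 with Atf3 high lower (*Cox7a1*, against 3.89% of all genes tested). They did not overlap for 1 with Atf3 high higher (*Cox8a*, against 7.07%). With scaling by library size alone the groups overlapped for *Cox7a1*. Nothing is read from 1 gene in each direction about the isoforms as a group. Without Atf3 high replicate 2, the library that went against its label, the log2 fold changes were −0.61 for *Cox7a1*, −0.61 for *Cox8b*, −0.26 for *Cox6a2*, −0.27 for *Cox4i1*, −0.11 for *Cox7a2*, −0.23 for *Cox7a2l*, 0.08 for *Cox6a1* and 0.91 for *Cox8a*.

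A ratio of both isoforms of a subunit needs no scaling between libraries, because they are counted in the same library. Each ratio below is in UMIs, and dividing by transcript length would add a constant of −0.25, 0.44 and 0.61 to the log2 ratios of the 6a, 7a and 8 pairs, the same in every library. Group differences in the log2 ratio were tested by two-sided exact permutation tests over libraries, with 0.5 added to each count. With 3 libraries against 3 the smallest p such a test can give is 0.1, so none of the 4 ratios could pass 0.05.

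*Cox8b* outnumbered *Cox8a* by 18.6, 28.2 and 31.8 UMIs to 1 in Atf3 high, against 49.3, 67.3 and 183 to 1 in Atf3 low. Every Atf3 high library was below every Atf3 low library. The interval of the Atf3 low replicate 3 ratio, which rests on 1 UMI of *Cox8a*, ran from 32.4 to 7267 (exact Clopper-Pearson, 95%, counting error only), and that of Atf3 high replicate 1 from 9.89 to 39.4. The log2 ratio was 4.59 ± 0.40 in Atf3 high against 6.10 ± 0.74 in Atf3 low (SD), a difference of −1.51, or a ratio 2.85 times as high in Atf3 low, with p = 0.1, the smallest the exact permutation test allows. Without Atf3 high replicate 2 the difference was −1.56, with any 1 library left out it ranged from −1.81 to −1.09, and with 5 in place of 0.5 added to each count it was −0.80.

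*Cox7a1* outnumbered *Cox7a2* in every library, by 1.71, 2.12 and 1.54 UMIs to 1 in Atf3 high, against 1.87, 2.96 and 2.20 to 1 in Atf3 low. The share of *Cox7a1* in the pair was lowest in Atf3 high replicate 3 (60.7%, exact Clopper-Pearson 95% interval 55.4% to 65.7%) and highest in Atf3 low replicate 2 (74.7%, 68.1% to 80.6%). The groups overlapped, because Atf3 high replicate 2 lay above Atf3 low replicate 1. The log2 ratio was 0.82 ± 0.23 in Atf3 high against 1.19 ± 0.33 in Atf3 low (SD), a difference of −0.37 (exact permutation test, two-sided, p = 0.2), and −0.50 without Atf3 high replicate 2. With any 1 library left out it ranged from −0.52 (without Atf3 low replicate 1) to −0.19 (without Atf3 low replicate 2).

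*Cox6a2* outnumbered *Cox6a1* by 4.20, 4.40 and 12.0 UMIs to 1 in Atf3 high, against 3.63, 18.8 and 13.4 to 1 in Atf3 low. The low ratios of replicates 1 and 2 of Atf3 high and of replicate 1 of Atf3 low set these 3 libraries apart from the other 3 irrespective of group. The share of *Cox6a2* was 80.8% (exact Clopper-Pearson 95% interval 76.7% to 84.4%), 81.5% (75.2% to 86.7%) and 92.3% (89.9% to 94.3%) in Atf3 high replicates 1, 2 and 3. It was 78.4% (73.6% to 82.7%), 94.96% (92.0% to 97.0%) and 93.1% (89.4% to 95.8%) in Atf3 low replicates 1, 2 and 3. The spread within each group was thus wider than counting error. The log2 ratio was 2.58 ± 0.85 in Atf3 high against 3.25 ± 1.24 in Atf3 low (SD), and the difference of −0.67 (exact permutation test, two-sided, p = 0.6) was smaller than either SD. Without Atf3 high replicates 1, 2 and 3 in turn it was −0.41, −0.44 and −1.16, and without Atf3 low replicates 1, 2 and 3 it was −1.37, −0.20 and −0.44. The 3 libraries with the lowest ratio were those with the highest summed level of fibroblast markers (5290, 2836 and 2662 CPM, against 1132, 1493 and 572 CPM), and the part of fibroblast RNA in the ratio was not tested.

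**Figure D2:**
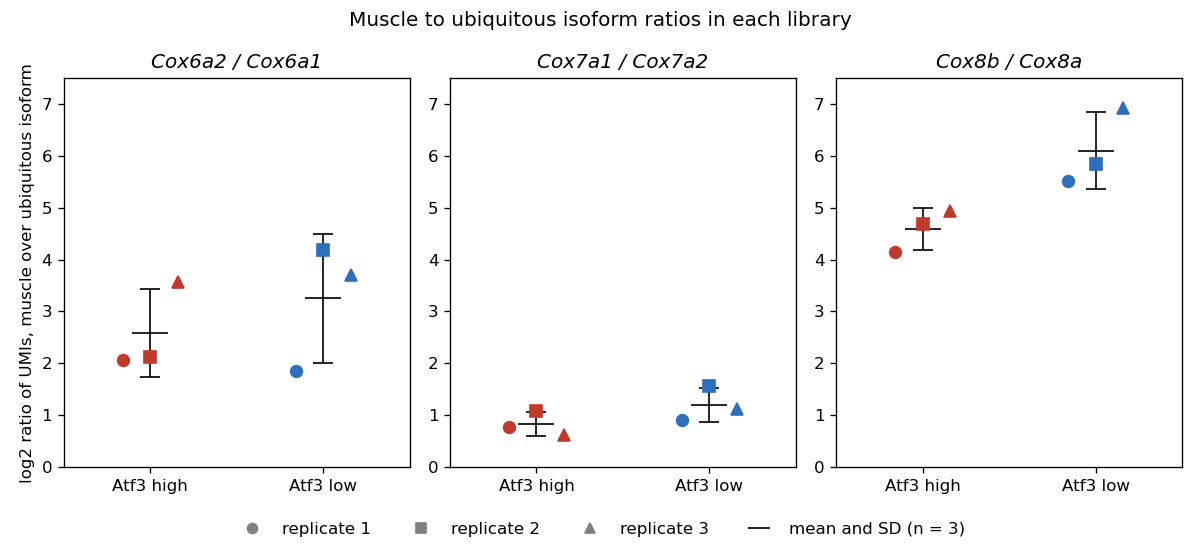
Log2 ratio of the UMI count of the muscle isoform over that of its ubiquitous partner in each library (0.5 added to each count), with points for libraries, replicate number by shape, and bars for the mean and SD of 3 libraries. The groups do not overlap for *Cox8b* over *Cox8a* (4.15 to 4.93 in Atf3 high and 5.51 to 6.93 in Atf3 low), and they overlap for the other 2 pairs.

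The 3 pairs together gave a muscle share of 79.8%, 83.4% and 85.3% in Atf3 high, against 81.0%, 90.5% and 89.1% in Atf3 low, or 82.8% ± 2.84 and 86.9% ± 5.14 (SD, n = 3). Atf3 low replicate 1 lay among the Atf3 high libraries. The summed level of the 3 muscle isoforms was 3323, 4381 and 5473 CPM in Atf3 high, against 4939, 5589 and 7341 CPM in Atf3 low, whereas that of the 3 ubiquitous isoforms was 884 ± 50.5 CPM in Atf3 high against 881 ± 288 in Atf3 low (n = 3, SD). The muscle isoform sums overlapped between the groups, and the part of cardiomyocyte RNA in them was not tested. *Cox4i2* made up 0.409% of the UMIs of the *Cox4i1* and *Cox4i2* pair in Atf3 high replicate 3 and 1.04% in Atf3 low replicate 1. The counts of 0 in the other 4 libraries allow a share of up to 2.13% in Atf3 high replicate 2, where the fewest molecules were counted. The log2 ratio of this pair, −8.29 ± 0.76 in Atf3 high against −7.96 ± 1.41 in Atf3 low (SD), is set by the 0.5 added to each count, and its difference of −0.32 (exact permutation test, two-sided, p = 0.8) was not detectable at this depth.

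The other genes of complex IV were taken from a list of 42 structural subunits, mitochondrially encoded subunits and assembly factors, of which 33 were listed and 30 tested. By edgeR with Benjamini-Hochberg adjustment 0 were called in either direction and 1 had an unadjusted p under 0.05 (5.79% of all genes tested had such a p). The count at an unadjusted p was 0 with scaling by library size alone (beside 514 of all 7665 genes). It was 5 without Atf3 low replicate 2 (beside 406 of all 7081 genes). DESeq2 and limma-trend likewise called 0, with 2 and 1 at an unadjusted p under 0.05, beside 3.25% and 5.53% of all genes. The median log2 fold change was −0.19, with 17 negative and 13 positive, beside a median of 0.11 over all genes tested. With scaling by library size alone the majority turned, to 14 negative and 16 positive with a median of 0.03 (0.31 over all genes), so no direction is read for the list. Of the 6 tested structural subunits without paired isoforms 5 had negative values with a median of −0.30, and 4 with a median of −0.09 with scaling by library size alone. The smallest p among them belonged to *Cox7b* (−0.53, standard error 0.36), *Cox6c* (−0.37, standard error 0.33) and *Ndufa4* (−0.35, standard error 0.34), which came to −0.30, −0.16 and −0.13 with that scaling, and none of the 6 was without overlap of the groups. With a library left out *Cox7b* ranged from −0.86 (without Atf3 low replicate 2) to −0.27 (without Atf3 low replicate 1), *Ndufa4* from −0.64 (without Atf3 low replicate 2) to −0.21 (without Atf3 low replicate 3) and *Cox6c* from −0.54 to −0.26. The 3 core subunits made in the mitochondrion, *mt-Co2* (−0.72, standard error 0.28), *mt-Co1* (−0.51, standard error 0.28) and *mt-Co3* (−0.46, standard error 0.28), were each lower in every Atf3 high library than in any Atf3 low library. With scaling by library size alone the 3 values were −0.51, −0.29 and −0.25. At that scaling the groups overlapped for *mt-Co3* and, narrowly, for *mt-Co1*, but not for *mt-Co2*. Together the 3 core subunits held 30291 ± 356 CPM in Atf3 high against 44397 ± 5403 CPM in Atf3 low (n = 3, SD), and their counts may include reads of nuclear copies. The share of UMIs from all mitochondrially encoded genes was likewise lower in every Atf3 high library (17.1%, 21.2% and 16.9%, against 21.9%, 21.9% and 22.6% in Atf3 low). Of 21 tested assembly and expression factors 12 had positive and 9 negative values (8 and 12 of 20 without Atf3 low replicate 3), and the smallest p belonged to *Smim20* (1.25, standard error 0.75), *Cox15* (1.84, standard error 1.18) and *Lrpprc* (0.90, standard error 0.58), which stabilizes mitochondrial mRNA. *Cox15* had 20, 0 and 3 UMIs in Atf3 high, against 3, 1 and 0 in Atf3 low, so Atf3 high replicate 1 alone carries its value, and without it too few UMIs remained for a test. *Smim20* fell to 0.71 without Atf3 high replicate 1 and rose to 1.95 without Atf3 low replicate 2. Over the 30 genes, groups did not overlap in TMM-scaled CPM for 7 (23.3%) with Atf3 high lower and for 3 (10%) with Atf3 high higher, against 3.89% and 7.07% of all genes tested. The former were *mt-Co1*, *mt-Co2*, *mt-Co3*, *Sco1*, *Surf1*, *Pet100* and *Higd2a*, and the latter *Cox14*, *Coa4* and *Lrpprc*. Of these, *mt-Co1*, *mt-Co3*, *Sco1* and *Pet100* overlapped with scaling by library size alone. Few molecules were counted for *Sco1* (5, 2 and 5 UMIs in Atf3 high, against 4, 4 and 3 in Atf3 low) and *Surf1* (3, 1 and 4 against 7, 3 and 2). The same holds for *Pet100* (1, 1 and 1 against 5, 4 and 1) and *Coa4* (4, 3 and 4 against 1, 1 and 0).

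Other genes with paired isoforms were read in the same way, as a description with no test. Some of these pairs hold a muscle and a more general form, while others, such as the cardiac myosins and the troponins, hold 2 muscle forms. Of 8 such pairs 7 had both genes listed, and the *Ckmt2* and *Ckmt1* pair was not analysed here. *Eno1* and *Tnni1* had 2 and 1 UMIs in all, so the ratios of *Eno3* and *Tnni3* to them are set by the 0.5 added and are not read. Differences with a library left out were computed after the data had been seen. For the adenine nucleotide carriers *Slc25a4* and *Slc25a5* the log2 ratio was 2.90 ± 0.63 in Atf3 high against 3.35 ± 0.50 in Atf3 low (SD, n = 3), a difference of −0.45, and of −0.19 without Atf3 high replicate 2 and −0.80 without Atf3 high replicate 3. For the creatine kinases *Ckm* and *Ckb* it was 3.07 ± 1.04 and 3.34 ± 0.46 (SD, n = 3), and the difference of −0.27 turned to 0.19 without Atf3 high replicate 2, while without Atf3 high replicate 3 it was −0.84 and the groups did not overlap. The log2 ratios of *Slc25a4* to *Slc25a5* were 2.72, 2.37 and 3.60 in Atf3 high, against 2.79, 3.76 and 3.49 in Atf3 low, so that the 3 lowest libraries were those with the lowest *Cox6a2* to *Cox6a1* ratio. In the opposite direction, the log2 ratio of *Pgam2* to *Pgam1* was 4.66 ± 1.19 and 3.29 ± 0.21 (SD, n = 3), with differences between 0.88 and 2.03 as each library was left out. That of *Ldhb* to *Ldha*, the heart and the skeletal muscle form of lactate dehydrogenase, was 1.80 ± 0.85 and 1.08 ± 0.49 (SD, n = 3), and its difference of 0.71 fell to 0.22 without Atf3 high replicate 2. The myosins *Myh6* and *Myh7* differed most of the 5 pairs read, with 4.98 ± 0.75 in Atf3 high against 6.83 ± 0.99 in Atf3 low (n = 3, SD) and without overlap. Their difference of −1.85 stayed between −2.40 and −1.42 as each library was left out. Of the genes of these pairs *Myh6* alone was called (log2 fold change −1.81, standard error 0.32, adjusted p = 0.00512 in edgeR after Benjamini-Hochberg adjustment).

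Among 1235 genes with a mean of at least 100 CPM, the 5 whose log2 levels over the 6 libraries were most like the mean of *Cox6a2*, *Cox7a1* and *Cox8b* were *Myl2* (Pearson r = 0.99), *Ndufa7* (0.97), *Tomm22* (0.96), *Abcc9* (0.96) and *Rbm20* (0.95). *Myl2* was also the most abundant cardiomyocyte marker, and *Abcc9* was on the list of mural cell markers. The 5 most like the mean of *Cox6a1*, *Cox7a2* and *Cox8a* were *Serbp1* (0.98), *Cipc* (0.96), *H2-K1* (0.95), *Naa50* (0.94) and *Tardbp* (0.94). These are the highest of many values over 6 libraries that share their depth and scaling, and they are given as a description.

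The isoform genes lie on 7 chromosomes of GRCm38, and the 3 muscle isoforms share chromosome 7. *Cox7a1* (ENSMUSG00000074218) lies at chr7:30184144-30186078 on the plus strand, *Cox6a2* (ENSMUSG00000030785) at chr7:128205435-128206387 on the minus strand and *Cox8b* (ENSMUSG00000025488) at chr7:140898945-140900446 on the minus strand. Their partners *Cox7a2* (ENSMUSG00000032330, chr9:79755361-79759878), *Cox6a1* (ENSMUSG00000041697, chr5:115345642-115348981) and *Cox8a* (ENSMUSG00000035885, chr19:7215153-7217616) are on other chromosomes, all on the minus strand. *Cox4i1* (ENSMUSG00000031818, chr8:120668222-120674207) and *Cox4i2* (ENSMUSG00000009876, chr2:152754173-152765037) are on the plus strand and *Cox7a2l* (ENSMUSG00000024248, chr17:83501918-83517330) on the minus strand. *Cox6a2* lies inside *Itgad* on the opposite strand, the read-through gene *Gm20388* spans *Cox4i1* on the same strand, and *Emc8* overlaps *Cox4i1* on the opposite strand, so without a stated strand setting the counts of these genes are uncertain. *Cox6a1* shares 92.9% of 496 bases with *AC148174.2*, and *Cox7a2l* shares 98.0% of 342 bases with *Gm6969* and 90% of 200 bases with *Gm10242*. None of these copies was listed in the table, and how reads matching a gene and its copy were counted is not given in the sources used here.

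RefSeq promoter sequences (GRCm38.p6, 250 bases before to 50 after the start used by that source) matched 6 of the 9 genes, with no entry for *Cox4i1*, *Cox4i2* and *Cox6a2*. The windows of the muscle isoforms held fewer CpG dinucleotides (7 in *Cox7a1*, 2 in *Cox8b*) than those of the ubiquitous isoforms (32 in *Cox6a1*, 20 in *Cox7a2*, 19 in *Cox8a*). Over 32851 promoters of the same length the median was 7, so *Cox7a1* was typical, whereas 14.1% of promoters held fewer than *Cox8b*. *Cox7a2l* held 19. The GC content was 53.0% in *Cox7a1* and 48.3% in *Cox8b*, against 63.0% in *Cox6a1*, 56.7% in *Cox7a2* and 56.0% in *Cox8a*. On both strands, the letters CCGGAA, the core bound by ETS factors, were found 3 times in *Cox8a*, once each in *Cox6a1* and *Cox7a2* and 0 times in *Cox7a1*, *Cox8b* and *Cox7a2l*, and 14.9% of all promoters hold them. The E-box letters CANNTG, which read the same on both strands, were found 2 times in *Cox8b*, 1 time each in *Cox7a1*, *Cox7a2*, *Cox7a2l* and *Cox8a* and 0 times in *Cox6a1* (72.3% of all promoters). The letters TATAAA were found 1 time, in *Cox8b* (13.6%), GGGCGG 2 times each in *Cox6a1* and *Cox7a2l* and 1 time in *Cox7a2* (35.7%), and TGACGTCA, the site known for ATF factors, in 0 of the 6 windows (1.79%). A match is a description of letters and not of binding, and the motifs were chosen with the sequences in view.

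The promoters of the 8 and 7a pairs are shown because these are the only pairs with a sequence for both partners, whose base composition differs. They are chr7:140900397-140900696 (*Cox8b*, minus strand), chr19:7217567-7217866 (*Cox8a*, minus strand), chr7:30183921-30184220 (*Cox7a1*, plus strand) and chr9:79759804-79760103 (*Cox7a2*, minus strand), each 5′ to 3′ along its gene, with CANNTG and CCGGAA on either strand in capitals.
Cox8b: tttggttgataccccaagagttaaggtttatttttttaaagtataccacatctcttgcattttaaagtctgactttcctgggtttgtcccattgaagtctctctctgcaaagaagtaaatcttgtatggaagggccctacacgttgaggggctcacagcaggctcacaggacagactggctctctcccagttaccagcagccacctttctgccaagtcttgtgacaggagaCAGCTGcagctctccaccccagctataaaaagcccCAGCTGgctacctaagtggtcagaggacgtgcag
Cox8a: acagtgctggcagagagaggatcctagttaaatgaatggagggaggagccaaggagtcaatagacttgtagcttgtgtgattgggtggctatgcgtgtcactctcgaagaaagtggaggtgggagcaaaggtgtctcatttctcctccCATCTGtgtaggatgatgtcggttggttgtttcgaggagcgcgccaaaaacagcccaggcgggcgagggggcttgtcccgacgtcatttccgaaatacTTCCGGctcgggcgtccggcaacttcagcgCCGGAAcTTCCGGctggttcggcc
Cox7a1: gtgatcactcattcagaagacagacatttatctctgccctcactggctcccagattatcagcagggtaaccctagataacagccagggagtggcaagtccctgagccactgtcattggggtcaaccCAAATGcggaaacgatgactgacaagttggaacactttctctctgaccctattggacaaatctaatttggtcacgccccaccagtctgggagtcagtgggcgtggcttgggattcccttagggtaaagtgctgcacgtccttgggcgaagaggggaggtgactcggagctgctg
Cox7a2: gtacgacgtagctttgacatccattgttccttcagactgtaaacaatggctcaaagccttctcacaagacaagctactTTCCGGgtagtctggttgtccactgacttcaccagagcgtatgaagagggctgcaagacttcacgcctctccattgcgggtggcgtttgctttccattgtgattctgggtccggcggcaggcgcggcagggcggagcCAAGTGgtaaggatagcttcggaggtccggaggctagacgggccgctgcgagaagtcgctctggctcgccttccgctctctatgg
In the *Cox8b* window the TATAAA letters lie between both E-boxes. In the *Cox8a* window the 3 CCGGAA matches lie together near the 3′ end.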

How the data were processed

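The authors deposited a table of UMI counts, with a column for each library and no normalization. The submitters' processing notes name HISAT2 2.1.0, UMI-tools 1.0.0, featureCounts 1.6.4 and GRCm38. The annotation release, the strand setting and the treatment of reads that match several genes are not given in the sources used here. Libraries were grouped by their labels, and 0 columns were left unused. Genes with at least 10 UMIs over the 6 libraries were scaled by TMM and tested by glmQLFit and glmQLFTest in edgeR 4.0.16 (R 4.3.3), with Benjamini-Hochberg adjustment over all genes tested and a threshold of 0.05. The common biological coefficient of variation was 53.6%. The test was checked on simulated data. Changes of 4 times put into such data, in genes of any depth, were all missed after adjustment. Changes of 8 times in genes with more UMIs were then added, with the test left as it was, and most of these were called. A count of 0 calls therefore does not exclude changes. Libraries of the same group differed beyond sampling noise, with chi-square values of 3.55 to 5.07 per degree of freedom. Ratios used counts plus 0.5. Alternatives were library size scaling, DESeq2 1.42.0, limma-trend (limma 3.58.1) on log2(CPM + 4), other filters and added counts, copies summed (none listed), a replicate block and leaving out each library. Copies were sought with BLAST+ 2.17.0 (90% identity over 100 bases). Genes named are the 9 isoform genes, the 3 of smallest p in each group of the complex IV list, the other isoform pairs, each marker list's most abundant gene and its markers at 0, and 5 genes most like each isoform profile. Also named are markers that were called, the cardiomyocyte marker not analysed, and markers whose removal changed an overlap. Fibroblast markers at an unadjusted p under 0.05 and genes of the complex IV list without overlap of the groups are named as well. Genes that overlap an isoform gene and its copies are named too. The isoform genes and all lists were chosen with earlier results of these data known. *Ndufs6*, *Ddx3y*, *Eif2s3y*, *Xist* and *Atf3* were added to check labels.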

Additional observations from a re-analysis of the deposited data

How the results depend on the processing

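None of the tested isoform genes was called under any of the alternatives run in edgeR, DESeq2 or limma-trend. Of 95 recomputed log2 fold changes 94 kept their sign, and 1 turned, *Cox6a1* without Atf3 low replicate 2 (−0.16, with up to 0.77 when another library was left out). *Cox8a* was not tested with filterByExpr and has no adjusted p in DESeq2. Of 36 recomputed ratio differences 34 kept their sign. That of *Cox4i2* and *Cox4i1* turned without Atf3 high replicate 1 (0.09) and also without Atf3 low replicate 1 (0.48), and ranged from −0.82 to 0.48 over the libraries left out. Counts of genes called over all genes changed more, from 7 to 12 with DESeq2 (9 lower) and 3 with limma-trend (1 higher, 2 lower), and to between 0 and 11 with a library left out (0 to 5 higher, 0 to 6 lower). The causes were not tested. Deviations from the group means correlated weakly between same-numbered libraries (0.09, 0.00 and 0.07 for replicates 1, 2 and 3). Replicates 1 and 3 of Atf3 high each correlated best with their own number, and replicate 2 did not. The labels do not say whether the numbers are pairs, and they were not taken as such. With a replicate block 24 genes were called, 11 higher and 13 lower, and 0 of the isoform genes, *Cox7a1* having a log2 fold change of −0.63 (unadjusted p = 0.0381), and the ratio of *Cox8b* and *Cox8a* gave p = 0.25, the smallest its exact sign-flip test allows. Copies summed gave no values of their own, since no copy was listed. Depth limits *Cox8a* (37 UMIs) and *Cox4i2* (5 UMIs) most.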

Other observations

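A further value, chosen after the levels had been seen and given with no test, is the summed level of *Cox6a2*, *Cox7a1* and *Cox8b* as a percent of the summed level of the 11 listed cardiomyocyte markers. It was 13.9%, 17.6% and 12.03% in Atf3 high replicates 1, 2 and 3 and 10.7%, 11.03% and 12.02% in Atf3 low replicates 1, 2 and 3. Atf3 high replicate 3 and Atf3 low replicate 3 were about equal. The ubiquitous *Cox6a1*, *Cox7a2* and *Cox8a* came to 3.52%, 3.49% and 2.07% in Atf3 high, against 2.51%, 1.15% and 1.47% in Atf3 low, with Atf3 low replicate 1 above Atf3 high replicate 3. The muscle isoform values depend on single markers. With *Myh6*, called lower in Atf3 high, taken out of the marker sum they were 15.1%, 19.7% and 13.4% in Atf3 high, against 13.9%, 13.4% and 15.03% in Atf3 low, and the groups overlapped. The groups also overlapped when *Actc1* or *Myl2* was taken out instead (without *Actc1* 17.3%, 19.5% and 13.6%, against 14.1%, 12.8% and 14.3%), and *Actc1* was named after its values were seen.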
